A study of Homo sapiens with 12 samples.

Results

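The 5 genes IGDCC4, CYGB, WIPF1, L1CAM and FOLR1 had the largest rises among the genes ranked when EGI-1 cells received decitabine together with talazoparib. They were chosen from 60651 genes of the count table by the log2 fold change of the combination over vehicle. To be ranked, a gene needed both combination libraries above both vehicle libraries, a call at an adjusted p of 0.05 and a mean level of 1 log2 CPM (counts scaled to a common library size) or more. Histone genes of the replication-dependent kind were left out. In all, 2125 genes met these conditions. The combination and vehicle values of EGI-1 therefore chose the members and are given as a description without a test. The single agents share the vehicle libraries of that choice, so they are described in the same way. Tests on the 5 genes are given for talazoparib against decitabine in EGI-1 and for decitabine against vehicle in HUCCT1. The HUCCT1 libraries did not enter the choice. The single-agent EGI-1 libraries entered through the mean level and the shared fit over 8 libraries, though not through the difference between them that was tested.

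EGI-1 and HUCCT1 are established cell lines of human cholangiocarcinoma, a cancer of the bile duct epithelium, both labelled wild type. EGI-1 cells were kept for 72 h with DMSO as vehicle, with decitabine at 0.5 µM, with talazoparib at 200 nM, or with both at these doses. HUCCT1 cells were kept for 72 h with DMSO or with decitabine at 1 µM, and no HUCCT1 library with talazoparib was analysed here. There were 6 arms with 2 libraries in each. No label describes these as separate cultures, so p-values measure only the spread between these libraries, which may be technical. In the library names talazoparib stands beside 50, whereas the labels state 200 nM. Each line is 1 line of cells, and the doses of decitabine differed between the lines.

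Decitabine is a cytidine analogue that is built into DNA and traps DNA methyltransferases, so that methylation at CpG sites is lost as cells divide. Talazoparib inhibits PARP enzymes and traps PARP1 on damaged DNA. IGDCC4 is a cell surface protein of the immunoglobulin superfamily, related to the netrin receptors DCC and neogenin. CYGB, cytoglobin, is a haem protein of the globin family that binds oxygen and consumes nitric oxide. WIPF1 encodes WIP, the partner that binds and stabilises the actin regulator WASP and is abundant in blood cells. L1CAM is an adhesion molecule best known from growing axons and is also made by some carcinomas. FOLR1, folate receptor alpha, is anchored to the outer membrane and carries folate into cells by endocytosis.

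EGI-1 libraries held 23139065 to 33181930 counts and HUCCT1 libraries 32519985 to 34965627. All 7 markers of biliary epithelium, among them KRT7, KRT19 and EPCAM, were above 1 CPM in every library. Of 11 markers of other cells, COL3A1, ALB and TTR stayed at 3 counts or fewer in every library. In EGI-1 4 of the 11 were above 1 CPM in every library. COL1A1 lay between 28.3 and 30.3 CPM with vehicle and between 42.6 and 49.4 CPM with the combination. VWF, an endothelial gene, lay between 2.0 and 2.16 CPM with vehicle and between 5.69 and 7.39 CPM with the combination. Over all EGI-1 libraries PECAM1 lay between 3.22 and 5.04 CPM, and CDH5, an endothelial cadherin gene, held 418 to 598 counts. The part of these transcripts in the EGI-1 results was not tested. The second combination library of EGI-1 stood apart. It held 381 counts of PTPRC, which encodes the leukocyte antigen CD45, against 1 to 7 in the other 7 EGI-1 libraries. CD3E, a T cell gene, had 148 counts in it against 0 to 4. A list of 16 blood cell genes was then written after these values were seen. In that library 13 of the 16 exceeded 10 counts, against 2 of 16 above 10 counts in each of the other EGI-1 libraries. The summed level of the list was 57.4 CPM there, between 2.48 and 4.53 CPM in the other EGI-1 libraries, and between 3.1 and 6.28 CPM in HUCCT1. For this reason the values that rest on the combination are given with and without its second library. In fits without it the remaining combination library was assumed to vary like the other arms.

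**Figure D1:**
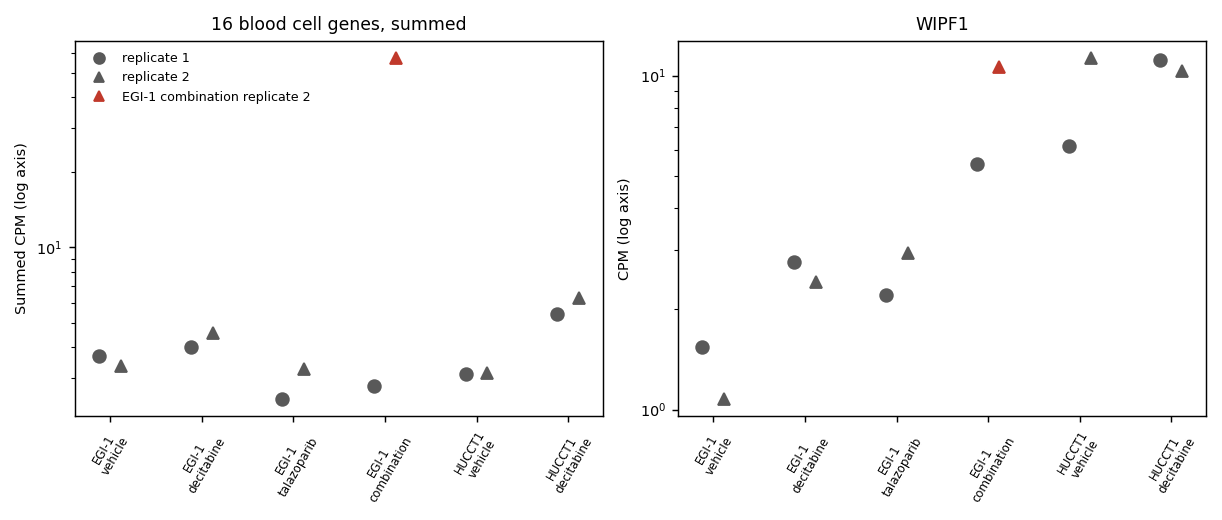
Summed CPM of 16 blood cell genes (left) and CPM of WIPF1 (right) in the 12 libraries, on log axes, with circles for replicate 1 and triangles for replicate 2. The second EGI-1 combination library, in red, has 57.4 summed CPM where the others have at most 6.28, and its WIPF1 level of 10.6 CPM is above the 5.43 CPM of its replicate.

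All 5 are protein-coding genes, placed here by GENCODE 44 on GRCh38. IGDCC4 (ENSG00000103742.12) lies on chromosome 15 from 65381484 to 65422947 on the minus strand. CYGB (ENSG00000161544.10) lies on chromosome 17 from 76527356 to 76551175 on the minus strand. WIPF1 (ENSG00000115935.18) lies on chromosome 2 from 174559572 to 174682916 on the minus strand. L1CAM (ENSG00000198910.14) lies on chromosome X from 153861514 to 153886173 on the minus strand. FOLR1 (ENSG00000110195.14) lies on chromosome 11 from 72189558 to 72196323 on the plus strand. No chromosome holds more than 1 of them.

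RefSeq promoter sequences on GRCh38.p14, from 250 bases before to 50 after a start, were found for IGDCC4, WIPF1 and L1CAM. They are shown because decitabine acts on CpG sites, which are in capitals, and because they differ widely in CpG number. All read 5′ to 3′ on the minus strand, that of the genes. The first is chr15:65422898-65423197, the start of IGDCC4. Next come chr2:174682864-174683163 and chr2:174634556-174634855, an outer and an inner start of WIPF1. The last is chrX:153875895-153876194, a start inside L1CAM.
IGDCC4: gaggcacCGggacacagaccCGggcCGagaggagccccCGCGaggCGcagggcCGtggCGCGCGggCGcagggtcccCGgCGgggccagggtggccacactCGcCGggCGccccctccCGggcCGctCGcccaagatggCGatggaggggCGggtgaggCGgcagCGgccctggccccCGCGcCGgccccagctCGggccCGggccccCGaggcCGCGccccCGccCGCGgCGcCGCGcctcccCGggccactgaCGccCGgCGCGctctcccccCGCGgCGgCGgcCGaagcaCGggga
WIPF1 outer start: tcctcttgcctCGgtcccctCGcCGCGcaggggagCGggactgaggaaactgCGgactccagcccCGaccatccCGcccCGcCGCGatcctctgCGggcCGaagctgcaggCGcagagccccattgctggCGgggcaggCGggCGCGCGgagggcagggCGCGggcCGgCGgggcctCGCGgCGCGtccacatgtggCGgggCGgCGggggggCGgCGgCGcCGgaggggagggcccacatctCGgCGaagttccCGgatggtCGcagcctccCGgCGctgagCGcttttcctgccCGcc
WIPF1 inner start: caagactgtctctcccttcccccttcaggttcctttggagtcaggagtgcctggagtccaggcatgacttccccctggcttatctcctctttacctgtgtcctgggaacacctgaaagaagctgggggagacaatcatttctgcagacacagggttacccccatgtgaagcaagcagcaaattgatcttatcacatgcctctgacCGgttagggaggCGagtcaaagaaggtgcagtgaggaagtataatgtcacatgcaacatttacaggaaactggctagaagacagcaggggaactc
L1CAM: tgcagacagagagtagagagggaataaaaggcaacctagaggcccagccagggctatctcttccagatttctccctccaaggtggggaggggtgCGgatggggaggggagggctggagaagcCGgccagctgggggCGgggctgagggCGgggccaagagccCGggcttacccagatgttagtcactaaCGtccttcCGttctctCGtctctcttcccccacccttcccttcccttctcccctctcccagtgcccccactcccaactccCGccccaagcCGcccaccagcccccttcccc
The IGDCC4 window holds 48 CpG sites, and 98.0% of the 35116 promoters in the table hold fewer. The outer start of WIPF1 holds 42, above 94.2% of promoters, and its inner start holds 2. The L1CAM window holds 10, below the median promoter with 14 and within the quartiles of 4 and 28. A GC box, GGGCGG on either strand, matched 2 times in IGDCC4, 3 times at the outer start of WIPF1 and 4 times in L1CAM, and 45.0% of all promoters hold at least 1. Methylation was not measured in these libraries, and counts per gene do not show which start was used.

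IGDCC4 rose most. Its EGI-1 vehicle libraries held 18 and 14 counts, or 0.591 and 0.503 CPM, on the CPM scale set over all 12 libraries. With decitabine the level was 1.495 and 1.39 CPM, with talazoparib 1.79 and 1.72 CPM, and with both drugs 5.31 and 4.18 CPM. The 4 arms followed one another without overlap. The combination stood 8.52-fold over vehicle, a log2 change of 3.09 ± 0.28 (SE, n = 2 per arm), and 9.58-fold without its second library.

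CYGB started nearly as low, at 0.656 and 0.683 CPM from 20 and 19 counts. It reached 1.63 and 1.61 CPM with decitabine, 2.20 and 1.57 CPM with talazoparib, and 4.82 and 4.90 CPM with both. The single agents overlapped each other, and the combination lay above both. The combination stood 7.19-fold over vehicle, a log2 change of 2.84 ± 0.26 (SE, n = 2), and 7.14-fold without its second library.

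WIPF1 was the least even of the 5. Vehicle libraries held 1.54 and 1.08 CPM, decitabine libraries 2.76 and 2.41 CPM, and talazoparib libraries 2.20 and 2.95 CPM. The combination libraries held 5.43 and 10.6 CPM, from 133 and 322 counts, and were farther apart in CPM than either agent alone was from vehicle. The higher value was in the library with the blood cell transcripts. With both libraries the rise was 6.08-fold, a log2 change of 2.60 ± 0.32 (SE, n = 2), and without the second it was 4.10-fold, a log2 change of 2.04 ± 0.29. Blood cell genes thus moved with this result, and their part in it was not tested. In bulk libraries RNA from outside the culture, more cells of one kind and more RNA per cell cannot be told apart.

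L1CAM levels were 1.54 and 1.29 CPM with vehicle, from 47 and 36 counts. They were 2.33 and 2.34 CPM with decitabine, 4.11 and 3.55 CPM with talazoparib, and 7.92 and 7.27 CPM with both. This was a staircase of 4 steps without overlap, with talazoparib above decitabine. The combination stood 5.30-fold over vehicle, a log2 change of 2.40 ± 0.20 (SE, n = 2), and 5.54-fold without its second library.

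FOLR1 was the most even. Vehicle libraries held 0.984 and 1.11 CPM from 30 and 31 counts, decitabine libraries 2.46 and 2.74 CPM, talazoparib libraries 2.57 and 2.60 CPM, and combination libraries 5.68 and 5.49 CPM. The talazoparib values fell inside the range of the decitabine values. The combination stood 5.28-fold over vehicle, a log2 change of 2.40 ± 0.22 (SE, n = 2), and 5.38-fold without its second library.

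In IGDCC4, L1CAM and FOLR1 the combination library that held the blood cell transcripts was the lower of the pair, and in CYGB the pair was nearly level. Without that library the folds of these 4 genes, given above, changed less than that of WIPF1, which went from 6.08 to 4.10.

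**Figure D2:**
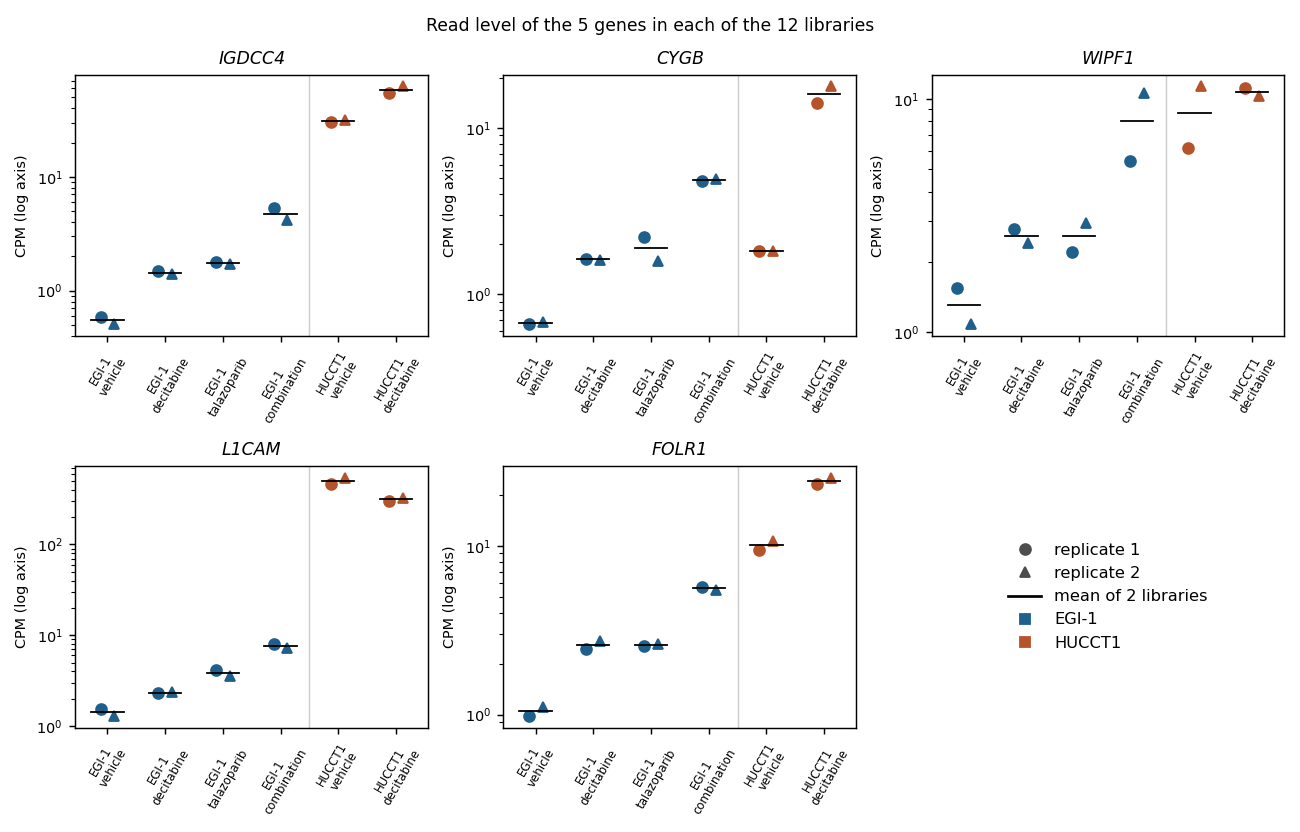
CPM on a log axis for each gene in the 12 libraries, with circles for replicate 1, triangles for replicate 2 and bars for the mean of 2 libraries. In EGI-1 the vehicle libraries are lowest and the combination libraries highest in all 5 panels, and in HUCCT1 L1CAM is lower with decitabine.

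Each agent alone moved the 5 genes part of the way. Over vehicle, decitabine gave log2 changes of 1.40 ± 0.30 for IGDCC4, 1.27 ± 0.28 for CYGB, 0.98 ± 0.34 for WIPF1, 0.72 ± 0.21 for L1CAM and 1.31 ± 0.23 for FOLR1 (SE, n = 2). Talazoparib gave 1.67 ± 0.29, 1.47 ± 0.28, 0.98 ± 0.34, 1.42 ± 0.20 and 1.30 ± 0.23 in the same order. In all 5 genes both libraries of either agent were above both vehicle libraries and below both combination libraries, a pattern that 5.89% of the 22406 genes tested in EGI-1 showed. Taken alone, combination above vehicle without overlap held for 29.6% of genes. That part was a condition of the ranking, so the 5 genes had to meet it. The other steps share the vehicle or combination libraries that chose the genes, so the choice favours them too. The shares over all genes are therefore no test of these steps. Outside the combination the highest EGI-1 arm mean was 1.755 CPM for IGDCC4 and 1.887 CPM for CYGB. These 2 genes thus reached the minimum level of the ranking through the combination libraries. The share of the whole pattern among the ranked genes was not counted. Decitabine above vehicle without overlap held for 19.3% of genes, and talazoparib above vehicle for 24.5%. Combination above talazoparib without overlap held for 23% (and below it for 20.3%), and combination above decitabine for 24.8%. Over talazoparib the combination added log2 changes of 1.42 for IGDCC4, 1.37 for CYGB, 1.62 for WIPF1, 0.98 for L1CAM and 1.10 for FOLR1. Without the second combination library the change was 1.59 for IGDCC4, 1.06 for WIPF1 and 1.13 for FOLR1. Across all tested genes 0.544% passed the test for decitabine (0.518% higher and 0.0268% lower), 4.12% for talazoparib and 18.7% for the combination.

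The combination was then set against both single-agent changes added together. In log2 units it departed from their sum by 0.02 ± 0.37 in IGDCC4, 0.10 ± 0.36 in CYGB, 0.26 ± 0.27 in L1CAM and -0.21 ± 0.29 in FOLR1 (SE). WIPF1 departed by 0.64 ± 0.44. These values contain the rises that chose the genes and are a description. Without the second combination library the departures were 0.20 ± 0.40 for IGDCC4, 0.09 ± 0.41 for CYGB, 0.08 ± 0.37 for WIPF1, 0.33 ± 0.31 for L1CAM and -0.18 ± 0.34 for FOLR1. On the CPM scale the picture differed, since adding the single rises gives less than multiplying them. There the combination rise was 2.00 times the sum of the single rises for IGDCC4, 1.94 times for CYGB, 2.64 times for WIPF1, 1.86 times for L1CAM and 1.47 times for FOLR1. Without the second combination library these ratios were 2.27, 1.92, 1.62, 1.96 and 1.5. Only the value of WIPF1 changed by more than 1.5 times.

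**Figure D3:**
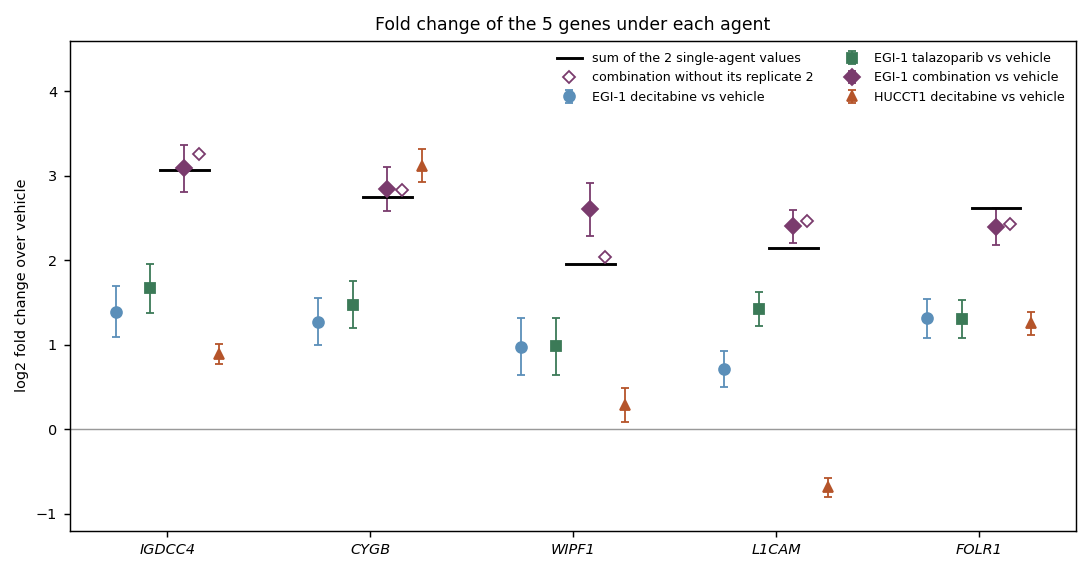
Log2 fold change over vehicle of the 5 genes for each agent, with error bars of 1 SE from the edgeR fits. Black bars mark the sum of both single-agent values in EGI-1, and open diamonds the combination without its second library. The black bar lies farthest from the combination in WIPF1, and L1CAM alone is below 0 in HUCCT1.

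Whether the agents differed from each other could be tested. Talazoparib against decitabine in EGI-1 called 0.946% of 22406 genes, with 0.353% higher and 0.594% lower. None of the 5 genes was among them with edgeR or with DESeq2, and 1 of the 5, L1CAM, had an unadjusted p under 0.05, as 2210 of all 22406 genes did. L1CAM was higher with talazoparib by 0.70 ± 0.19 on the log2 scale (95% CI 0.31 to 1.10, unadjusted p = 0.0016 and adjusted p = 0.1 by edgeR). The talazoparib libraries of IGDCC4 and L1CAM lay above the decitabine libraries without overlap, as 19.4% of all tested genes did. The difference was 0.27 for IGDCC4 (95% CI -0.24 to 0.79), 0.20 for CYGB (-0.31 to 0.70), 0.00 for WIPF1 (-0.65 to 0.66) and -0.01 for FOLR1 (-0.43 to 0.41). The intervals of these 4 genes take in 0, and the bounds show which differences the libraries leave possible.

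HUCCT1 gave another picture. Decitabine called 33.5% of 22479 genes in this line, with 19.6% higher and 13.9% lower. CYGB, IGDCC4 and FOLR1 rose, L1CAM fell and WIPF1 did not pass the test. CYGB had 1.81 and 1.82 CPM with vehicle and 14.1 and 17.8 CPM with decitabine, a log2 change of 3.12 ± 0.19 (SE, edgeR adjusted p = 1.5e-12). Its rise of 8.69-fold was the largest of the 5 in this line, and it brought CYGB from 55 counts in each vehicle library to 451 and 526. FOLR1 rose from 9.42 and 10.7 CPM to 23.2 and 25.3 CPM, a log2 change of 1.26 ± 0.14 (edgeR adjusted p = 6.8e-08). IGDCC4 rose from 30.5 and 31.8 CPM to 54.1 and 62.3 CPM, a log2 change of 0.89 ± 0.12 (edgeR adjusted p = 1.4e-06). In these 3 genes the decitabine libraries lay above the vehicle libraries without overlap, as in 34.4% of all genes tested in HUCCT1.

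L1CAM went the other way. It was highly expressed in HUCCT1, at 468 and 544 CPM with vehicle, and fell to 305 and 328 CPM with decitabine, a log2 change of -0.69 ± 0.11 (edgeR adjusted p = 1.7e-05). The libraries did not overlap, as in 30.7% of genes in that direction. In EGI-1 both decitabine libraries were above both vehicle libraries for this gene, as in 19.3% of genes tested there. WIPF1 had 6.16 and 11.3 CPM with vehicle and 11.1 and 10.3 CPM with decitabine, a log2 change of 0.29 ± 0.20 (95% CI -0.14 to 0.72, edgeR adjusted p = 0.31). Here the vehicle libraries, with 187 and 342 counts, were farther apart than the arms, and each decided the value. Without the first vehicle library the change was -0.09, and without the second it was 0.77 with an edgeR adjusted p of 0.0019. Summed over the 16 blood cell genes, vehicle gave 3.1 and 3.14 CPM, with 1 gene above 10 counts, while decitabine gave 5.4 and 6.28 CPM, with 3 genes above. CD3E went from 0 and 1 counts to 17 and 23, and PTPRC stayed at 3 to 4. Markers of other cells moved with decitabine in this line as well. COL1A1 went from 26.5 to 29.6 CPM up to 159 to 189 CPM, CDH5 from 6 to 11 counts up to 226 to 269, VWF from 99 to 130 up to 400 to 431, PECAM1 from 19 to 25 up to 113 to 128 and PDGFRB from 11 to 22 up to 76 to 84. COL3A1, ALB and TTR stayed at 2 counts or fewer. The part of such transcripts in the HUCCT1 results was not tested.

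The lines differed in where the genes started. In vehicle libraries L1CAM was 357-fold higher in HUCCT1 than in EGI-1, IGDCC4 57-fold, FOLR1 9.61-fold, WIPF1 6.66-fold and CYGB 2.71-fold. The EGI-1 combination reached 268% of the HUCCT1 vehicle level for CYGB, 91.8% for WIPF1, 55.4% for FOLR1, 15.2% for IGDCC4 and 1.501% for L1CAM. For WIPF1 it reached 62.2% without the second combination library. Line and arm levels could be ordered for each gene. IGDCC4 and FOLR1 were highest in HUCCT1 with decitabine, then in HUCCT1 with vehicle, then in the EGI-1 combination. CYGB was second highest in the EGI-1 combination, and EGI-1 with talazoparib and HUCCT1 with vehicle overlapped behind it. WIPF1 overlapped between the EGI-1 combination and both HUCCT1 arms, and this rested on the second combination library. The first, at 5.43 CPM, was below every HUCCT1 library, of which the lowest held 6.16 CPM.

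Between genes, levels were compared per kilobase of merged exon. In EGI-1 vehicle libraries FOLR1 led with 0.655 ± 0.058 CPM per kb (SD, n = 2), before CYGB with 0.243 ± 0.0069, L1CAM with 0.195 ± 0.024, WIPF1 with 0.0842 ± 0.021 and IGDCC4 with 0.0718 ± 0.0081. In the combination the order was FOLR1 with 3.49 ± 0.081, CYGB with 1.77 ± 0.021, L1CAM with 1.05 ± 0.064, IGDCC4 with 0.623 ± 0.11 and WIPF1 with 0.515 ± 0.23 CPM per kb. IGDCC4 and WIPF1 overlapped in both arms. In the combination this rested on the second library, since WIPF1 held 0.349 CPM per kb in the first. On this scale 9.52% of 25024 genes were below IGDCC4 with vehicle and 32.2% with the combination. For FOLR1 the shares were 32.2% and 63.9%. With vehicle the shares of genes below the risers lay between 9.52% and 32.2%. The choice by fold change over these vehicle libraries favours genes with low vehicle values. With the combination 51.5% of genes were below CYGB. In HUCCT1 with vehicle, 97.9% of genes were below L1CAM.

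Relatives and partners of each gene were followed in lists of 3 to 27 genes. In EGI-1 the combination called 16 of 67 tested relatives, 7 higher and 9 lower, or 23.9% beside 18.7% of all genes. Without the second combination library it called 10 of 69, or 14.5% beside 10.7%. In HUCCT1 decitabine called 31 of 80, 15 higher and 16 lower, or 38.8% beside 33.5% of all genes. The netrin receptors and ligands around IGDCC4 had 7 of 12 genes tested, and 1 fell. This was NTN1, netrin-1, from 27 to 29 counts down to 8 to 10, a log2 change of -1.55 ± 0.42 (edgeR adjusted p = 0.012). IGDCC3 had at most 3 counts and DCC at most 1 in any EGI-1 library, and NEO1, neogenin, changed by -0.10 ± 0.13 (adjusted p = 0.64). In HUCCT1 3 of 10 rose with decitabine. They were the netrin receptor UNC5B by 1.59 ± 0.22, its relative UNC5D by 2.24 ± 0.75 from 2 to 5 counts, and RGMA, a ligand of neogenin, by 2.83 ± 0.24.

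The globins were mostly silent in EGI-1, so that 3 of 15 listed genes were tested. CYB5R3, which with cytochrome b5 can reduce cytoglobin, rose by 0.24 ± 0.061 (adjusted p = 0.0095). NGB, neuroglobin, was at 0 in all EGI-1 libraries. MB, myoglobin, had 169 to 218 counts across vehicle and combination and changed by -0.10 ± 0.16. In HUCCT1 MB rose by 1.04 ± 0.26 and CYB5A by 0.62 ± 0.13, while HBA2 went from 10 and 16 counts to 3 or fewer.

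Around WIPF1, 22 of 23 genes of actin nucleation were tested in EGI-1, with 3 higher and 1 lower. WIPF3, a paralogue, rose by 0.57 ± 0.16, and the Arp2/3 subunits ARPC1A and ARPC4 rose by 0.31 ± 0.086 and 0.25 ± 0.071. WIPF2, the other paralogue, fell by 0.23 on the log2 scale (SE 0.063). WAS, which encodes WASP, had 5 counts in the first combination library and 35 in the second. FNBP1, a WASP-binding membrane protein, had 6 and 67, while the other EGI-1 libraries held 3 to 14. Both high counts were in the library with the blood cell transcripts, as for WIPF1. In HUCCT1 WAS rose by 1.99 ± 0.44 from 7 and 15 counts, while ACTR2 and WIPF3 were called lower, at -0.36 ± 0.11 and -0.57 ± 0.20.

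Among 21 relatives and partners of L1CAM 13 were tested in EGI-1, with 2 higher and 4 lower. The integrin subunits ITGA5 and ITGB3, partners of L1CAM outside the cell, rose by 0.86 ± 0.071 and 1.63 ± 0.35. NRP1, a semaphorin co-receptor, changed by -0.59 ± 0.062, ANK3, an ankyrin that ties L1 proteins to the cytoskeleton, by -0.39 ± 0.076, CNTN2 by -1.003 ± 0.27 and the protease ADAM17, which sheds L1CAM, by -0.22 ± 0.067, and all 4 passed as lower. ITGA5 also rose with each agent alone, by 0.47 with decitabine (adjusted p = 0.003) and 0.38 with talazoparib (adjusted p = 0.0041). In HUCCT1, where L1CAM fell, 4 of 16 rose and 5 fell. ITGA5 rose by 0.79 ± 0.11 and the L1 relatives NRCAM and NFASC by 2.50 ± 0.34 and 2.22 ± 0.64, and NCAM1 by 2.89 ± 0.67. The last 3 started low, with vehicle counts of 13 to 18 for NRCAM, 4 to 5 for NFASC and 3 to 4 for NCAM1. NRP1 at -0.65 ± 0.10, ANK3 at -0.88 ± 0.13, ITGB1 at -0.67 ± 0.10, the sheddase ADAM10 at -0.42 ± 0.11 and CNTN1 at -1.07 ± 0.18 were lower. CHL1, the closest relative, had at most 1 count in any EGI-1 library.

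Of 27 genes of folate uptake and use 22 were tested in EGI-1, with 1 higher and 3 lower. The proton-coupled folate carrier SLC46A1 rose by 0.51 ± 0.089 (adjusted p = 0.00059). TYMS, which spends folate in thymidylate synthesis, changed by -0.30 ± 0.077, and the mitochondrial enzyme MTHFD1L by -0.46 ± 0.065. The other receptors were scarce, with FOLR2 at 0 and FOLR3 at 5 counts or fewer in vehicle and combination libraries. In HUCCT1 5 of 25 rose and 8 fell, where 19.6% of all genes were called higher and 13.9% lower. SLC46A1 was higher by 0.48 ± 0.16, while TYMS was lower, at -0.40 ± 0.13.

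Over all 22406 genes 11.1% were called higher and 7.61% lower in the combination. The medians of the 5 lists lay between -0.10 and 0.13 on the log2 scale beside -0.02 for all genes. Without the second combination library, when 10.7% of 23508 genes were called (6.88% higher and 3.85% lower), the lists around WIPF1, L1CAM and FOLR1 had 2, 2 and 1 genes higher and 0, 2 and 2 lower by edgeR. NTN1, WIPF2, WIPF3, CNTN2, ADAM17 and TYMS lost their calls, with adjusted p from 0.051 to 0.11, while their log2 changes kept their sign and shifted by 0.11 or less. That fit holds 1 library fewer. A further 3 genes that the study used as readouts of decitabine were at 4 counts or fewer in vehicle and combination libraries of EGI-1, and were not tested there. By RT-PCR, another assay, the study reported that decitabine raised their mRNA in sensitive and in resistant cells. By methylation-specific PCR it reported loss of methylation at the UCHL1 promoter in EGI-1, among other lines. In HUCCT1 SFRP1 rose by 5.09 ± 0.47, SOX17 rose by 5.26 ± 0.25, and UCHL1 went from 0 counts in both vehicle libraries to 936 and 1028.

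Genes within 200 kb of the 5 were examined to see whether the rises were shared along the chromosome. Of 64 neighbours tested in EGI-1, 14 were higher and 6 lower with the combination, beside 11.1% and 7.61% of all genes. Their median log2 change was 0.03, against -0.02 for all genes. Without the second combination library 9 of 65 were higher and 3 lower. AANAT, ST6GALNAC1, RENBP, IRAK1, CLPB, NUMA1 and the unnamed ENSG00000251143 were among the 8 that lost their calls. Their log2 changes kept their sign and shifted by 0.082 or less.

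CYGB had the most neighbours on the higher side, 6 of 19. PRCD, a gene of photoreceptor discs that overlaps CYGB on the opposite strand, rose from 27 and 22 counts to 91 and 115, a log2 change of 2.15 ± 0.26 (adjusted p = 1e-05). It also stood at 55 and 37 counts with decitabine and 44 and 54 with talazoparib, the same order as CYGB. Whether counting used the strand is not stated, so reads of CYGB and PRCD may have been counted for each other. In HUCCT1 PRCD changed by 0.77 ± 0.31 (adjusted p = 0.054), where CYGB changed by 3.12. SPHK1, the sphingosine kinase gene, starts 175 kb from CYGB and rose by 1.45 ± 0.098 with the combination and by 1.56 ± 0.15 in HUCCT1. MXRA7 rose in both lines too, by 0.79 ± 0.075 and 0.58 ± 0.11, as did ST6GALNAC1, a sialyltransferase gene, by 1.08 ± 0.30 and 1.26 ± 0.20. SPHK1 and MXRA7 were also called higher with each agent alone.

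The other surroundings were mixed. Near L1CAM 5 of 17 neighbours were higher and 2 lower, with the plexin PLXNB3 at 0.73 ± 0.17. RENBP, at 2.82 ± 0.92, went from 1 to 3 counts to 13 to 15. ARHGAP4 changed by 1.32 ± 0.86 without a call (adjusted p = 0.38), and its 15 and 122 counts in the combination again put the high value in the second library. L1CAM-AS1, which overlaps L1CAM on the opposite strand, had 126 to 152 counts in HUCCT1 vehicle libraries and changed with decitabine by -0.71 ± 0.22, close to the -0.69 of L1CAM, and reads of these genes too may be mixed. Near FOLR1 2 of 13 were higher and 3 lower, and near IGDCC4 HACD3 was called, at 0.30 ± 0.062. The 5 tested neighbours of WIPF1 lay between -0.32 and 0.51. In HUCCT1 14 of 69 neighbours were higher and 12 lower, or 20.3% and 17.4% beside 19.6% and 13.9% of all genes. Among them CHRNA1 near WIPF1 rose by 4.10 ± 0.71 from 2 to 3 counts.

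The 3 genes whose log2 CPM ran most nearly parallel to each riser over the 8 EGI-1 libraries were taken from 13786 genes. These correlations describe libraries that share 4 arms and carry no test. IGDCC4 ran with SERINC2, SLC41A1 and the filamin FLNC, with r from 0.995 to 0.996. CYGB ran with ATP6V0D1, a proton pump subunit, GUCD1 and the potassium channel KCNK6, with r from 0.994 to 0.997. WIPF1 ran with PPP1R2, CRCP and ZNF106, at a lower r of 0.984 to 0.988. L1CAM ran with the kinase NUAK2, KCNS1 and TPD52L2, with r from 0.997 to 0.999, and FOLR1 with GRINA, SH3TC2 and BLTP2, with r from 0.992 to 0.995. The shape was shared and the size was not, since combination log2 changes of these 15 genes lay between 0.23 for GUCD1 and 1.59 for FLNC. In HUCCT1 7 of the 15 were called higher, beside 19.6% of all genes, and the other 8 were not called by edgeR. The 15 had 1026 counts or more in each HUCCT1 vehicle library, and the share over all genes was not matched for level. SLC41A1 and FLNC rose with IGDCC4, by 0.43 ± 0.11 and 0.30 ± 0.10, and KCNK6 rose with CYGB, by 0.58 ± 0.12. NUAK2 and TPD52L2 rose by 1.35 ± 0.11 and 0.50 ± 0.10 where L1CAM fell. ATP6V0D1 changed by -0.25 ± 0.11 (adjusted p = 0.08) where CYGB rose. PPP1R2 and CRCP rose by 0.50 ± 0.11 and 0.43 ± 0.11 where WIPF1 was not called. None of the 3 genes beside FOLR1 was called, although FOLR1 rose.

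The line between members and other genes was narrow. FOLR1 was the last one inside at 2.40, and ESPNL at 2.38 ± 0.25 and RIMKLB at 2.31 ± 0.34 were the next outside. ESPNL had 0.894 ± 0.058 CPM with vehicle and 2.11 ± 0.12 with decitabine (SD, n = 2). It had 2.26 ± 0.37 CPM with talazoparib and 4.72 ± 0.67 with both. Its single agents overlapped each other and lay between vehicle and combination. RIMKLB had 0.815 ± 0.27 CPM with vehicle and 1.16 ± 0.47 with decitabine, which overlapped. It had 2.04 ± 0.40 CPM with talazoparib and 4.03 ± 1.42 with both, the latter from 74 and 153 counts. Above IGDCC4 were 33 tested genes with larger rises, all 33 under the minimum level. Without the second combination library IGDCC4, CYGB, L1CAM and FOLR1 stood at places 1, 2, 4 and 5, ESPNL at place 3 and WIPF1 at place 19.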

How the data were processed

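RNA sequencing counts of 12 libraries were analysed. The authors deposited whole-number counts without normalization for 60651 genes with versioned Ensembl identifiers. The submitters' processing notes name fastp, Trim Galore, HISAT2, featureCounts and GRCh38, while the study's methods name STAR and RSEM. The header is laid out as featureCounts writes it. The annotation release, strand use and the handling of multi-mapped reads are not given in the sources used here. The methods name a stranded total RNA kit. Symbols were matched by stable identifier for 60437 genes, and 214 were not matched.

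The tests used edgeR 4.0.16 (R 4.3.3, filterByExpr by arm, TMM, robust quasi-likelihood test, Benjamini-Hochberg over all genes). The 8 EGI-1 libraries were fitted together and the 4 HUCCT1 libraries apart. A gene was called at an adjusted p below 0.05, and SE are Wald errors of the fit. CPM use TMM factors over all 12 libraries, from 0.866 to 1.06. With 2 against 2 libraries an exact two-sided permutation test cannot give a p under 0.333. The scripts were tested on simulated data.

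The members, the gene lists and the rules were chosen with earlier results of these data known. Named are the members, the 2 genes ranked next, the called or defining relatives, the neighbours called within 200 kb and the 3 genes most like each member by Pearson r (prior count 2). The blood cell list, and ARHGAP4 and FNBP1, were chosen after their values were seen. Alternatives were DESeq2 1.42.0, other scalings and filters, replicate blocks, fits of 4 libraries and leaving out each library. Promoter sequences are from RefSeq. Same-numbered EGI-1 libraries did not deviate together (correlations from -0.07 to 0.06), so replicate numbers were read as names. A few withheld genes are counted in the lists but not reported here by name.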

Additional observations from a re-analysis of the deposited data

Results flagged for a closer look

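With decitabine the measured L1CAM levels moved in opposite directions in the 2 lines. In HUCCT1 both decitabine libraries were below both vehicle libraries, with a log2 change of -0.69, as in 30.7% of genes. In EGI-1 both were above, with 0.72, as in 19.3% of genes. The EGI-1 value shares the vehicle libraries that chose L1CAM and is a description. It rests on 36 and 47 counts with vehicle and 64 and 70 with decitabine. The difference between the lines was not tested. The doses differed, at 1 µM and 0.5 µM, and line and dose cannot be told apart. L1CAM-AS1, which overlaps it, moved down with it in HUCCT1.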

How the results depend on the processing

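Results that were tested were recomputed under every alternative. In HUCCT1 the calls for IGDCC4, CYGB, L1CAM and FOLR1 kept their direction and side of the threshold in all 9, with edgeR or DESeq2 adjusted p of 0.00048 or less. WIPF1 ranged from -0.0933 to 0.77 when 1 library was left out, with adjusted p from 0.0019 to 0.78. For talazoparib against decitabine L1CAM stayed between 0.60 and 0.82 over 15 alternatives with adjusted p from 0.075 to 0.63, and leaving out 1 library gave CYGB from -0.0464 to 0.44, WIPF1 from -0.23 to 0.18 and FOLR1 from -0.0918 to 0.0693. WIPF1 was -0.0044 with DESeq2 and -9.3e-05 with only the 4 libraries compared, and FOLR1 was 0.0035 with upper-quartile scaling. With a replicate block WIPF1 was -0.0272 by title number and -0.0464 by the series of library names.

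Counts of called genes moved more. Leaving out 1 library gave 76 to 494 genes for talazoparib against decitabine (212 with all), 22 to 417 for decitabine (122), 247 to 1663 for talazoparib (923) and 1850 to 5288 for the combination (4194). Without a filter on low counts the first and second were 444 and 335, and with only the 4 libraries compared they were 79 and 43, and 1851 for talazoparib. The replicate block by title number gave 119 and 60, and by name series 75 for decitabine. In HUCCT1 the count lay between 5464 and 10136. The cause of these shifts was not tested.

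Over the alternatives the combination called 0 to 2 genes of the netrin list, 0 to 1 globin, 0 to 8 around WIPF1, 3 to 7 around L1CAM, 2 to 11 of folate and 7 to 24 neighbours by edgeR or DESeq2. In HUCCT1 the lists around WIPF1 and FOLR1 gave 1 to 9 and 5 to 16. Within 100 kb the combination called 10 neighbours, 8 higher and 2 lower, and HUCCT1 14. The rank of WIPF1 was 19 without the second combination library. The prior count of 0.5 kept 2 of the 3 genes most like IGDCC4 and all 3 of the others. With 14 to 47 counts per EGI-1 vehicle library, fold changes over vehicle carry SE of up to 0.34 and departures from the sum SE of up to 0.44.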
